A study of Mus musculus with 13 samples.

Results

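The genes examined were 7 transcription factor genes known for building or maintaining noradrenergic neurons: Phox2a, Tfap2b, Gata3, Gata2, Hand2, Ebf3 and Insm1. They were chosen by name and sought as rows of a gene count table of 12009 genes. Of the 7, 5 had a row (Phox2a, Tfap2b, Gata3, Gata2 and Ebf3), and Hand2 and Insm1 are not analysed here. The lowest mean count of any gene in the table was 78.4 over the 13 libraries, although a single library can hold far fewer counts of a gene.

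All mice were Slc6a2-eGFP/Rpl10a transgenics, hemizygous on a C57BL/6 background, in which the promoter of Slc6a2, the gene of the norepinephrine transporter (NET), drives a ribosomal protein fused to EGFP. In translating ribosome affinity purification (TRAP), tagged ribosomes are pulled down from a homogenate with the mRNA they carry, and the unprocessed homogenate, here hindbrain without cerebellum, gives the input RNA. Mice aged 6 to 8 months received DSP-4, a neurotoxin of noradrenergic axons, at 50 mg/kg or saline vehicle on days 1 and 7, and tissue was taken on day 14. The groups were DSP-4 TRAP (n = 6), saline TRAP (n = 3), DSP-4 input (n = 2) and saline input (n = 2), each library being a pool of 2 mice of the same sex. The driver marks every hindbrain cell that expresses Slc6a2, not the locus coeruleus alone. The authors removed 2 saline samples in which the pulldown enriched Slc6a2 by less than 10-fold, so the saline libraries were in part kept for a noradrenergic gene. They collected 6 pools per treatment, and this removal alone does not account for a saline TRAP group of 3. The reason for the difference is not given in the sources used here.

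Phox2a encodes a homeodomain protein that switches on Th and Dbh, and the mouse locus coeruleus does not form without it. Tfap2b encodes AP-2 beta, and Gata2 and Gata3 encode zinc finger proteins. All 3 take part in the differentiation of sympathetic noradrenergic neurons in mouse, while the GATA pair also specifies GABAergic and serotonergic neurons of the hindbrain. Ebf3 encodes a helix-loop-helix protein of the Collier/Olf/EBF family, found in many differentiating neurons.

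In the GENCODE vM21 annotation of GRCm38, the 5 measured genes are protein coding. Phox2a is at chr7:101818313-101822726 on the plus strand, and 95 bp of its exons (4.67% of their length) overlap Inppl1 on the other strand. Tfap2b is at chr1:19208914-19238576 and Gata2 at chr6:88193891-88207032, both on the plus strand. Gata3 is at chr2:9857078-9890034 on the minus strand and shares 155 bp of exon with an antisense gene, Gm13256, and 77 bp with 9230102O04Rik on its own strand. Ebf3 is at chr7:137193673-137314445 on the minus strand, with 355 bp shared with the antisense gene Gm45278. Whether the counting used strand is not given in the sources used here, so reads in these overlaps cannot be assigned with certainty.

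Promoter sequences are given for 3 genes on which the results turn: those of Phox2a and Tfap2b, the 2 factor genes with the smallest p-values for TRAP over input, and that of Dbh, an established target of Phox2a in mammals. Each window runs 300 bases, 250 before and 50 after the RefSeq start (build GRCm38.p6), at chr7:101818063-101818362, chr1:19211804-19212103 and chr2:27165257-27165556, all plus strand, with the homeodomain core TAAT, read on either strand as TAAT or ATTA, in capitals.
Phox2a: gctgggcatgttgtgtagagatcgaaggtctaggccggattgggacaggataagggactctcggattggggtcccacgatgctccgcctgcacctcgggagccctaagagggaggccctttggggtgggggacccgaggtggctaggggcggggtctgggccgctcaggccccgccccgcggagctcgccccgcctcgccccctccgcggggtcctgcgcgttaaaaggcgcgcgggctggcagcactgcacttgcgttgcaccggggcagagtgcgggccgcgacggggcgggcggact
Tfap2b: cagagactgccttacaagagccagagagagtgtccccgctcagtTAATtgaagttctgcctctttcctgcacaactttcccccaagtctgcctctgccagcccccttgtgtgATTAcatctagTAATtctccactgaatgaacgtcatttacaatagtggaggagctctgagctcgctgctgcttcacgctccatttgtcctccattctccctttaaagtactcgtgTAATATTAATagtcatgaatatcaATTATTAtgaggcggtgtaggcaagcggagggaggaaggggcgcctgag
Dbh: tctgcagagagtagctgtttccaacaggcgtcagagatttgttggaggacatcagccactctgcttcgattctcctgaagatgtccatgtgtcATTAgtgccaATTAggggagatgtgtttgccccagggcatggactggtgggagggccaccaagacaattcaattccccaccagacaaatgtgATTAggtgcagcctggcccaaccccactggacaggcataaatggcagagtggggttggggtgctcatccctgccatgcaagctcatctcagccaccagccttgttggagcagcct
The Phox2a window held 0 TAAT cores, the Tfap2b window 8, overlapping matches counted, and the Dbh window 3, while those of Gata3, Gata2 and Ebf3 held 0 and that of Hand2 held 5, and 58.0% of 32851 RefSeq windows of this length held at least 1. The GC content was 71.3% in the Phox2a window, 48.3% in the Tfap2b window and 54.0% in the Dbh window. Other motifs were also searched on both strands. GATAA, bound by GATA factors, occurred once in the Phox2a window (25.4% of all windows held it) and not in those of Tfap2b and Dbh. GCCNNNGGC, bound by AP-2 proteins (16.6% of windows), occurred 3 times in the Gata3 window, once in that of Ebf3 and once in 1 of the 2 Gata2 windows, and in none of the 3 windows printed. CCCNNGGG, bound by EBF proteins (13.7% of windows), occurred once in the Dbh window, once in that of Ebf3 and in both Gata2 windows. CANNTG, the E-box (72.3% of windows), occurred once each in the Phox2a and Tfap2b windows and 2 times in that of Dbh. Such a match is a run of letters and not a shown binding site. Of the 7 listed genes, 6 had a RefSeq window.

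Library totals ran from 17491357 to 27215994 counts in DSP-4 TRAP and from 19156476 to 29199550 in saline TRAP. They were 21697383 and 24374141 in DSP-4 input and 21725669 and 28208463 in saline input. Markers of noradrenergic neurons (Dbh, Slc6a2, Th and Slc18a2, all 4 measured) summed to 268 to 428 CPM in DSP-4 TRAP and 534 to 627 CPM in saline TRAP, against 68.7 and 84.9 CPM in DSP-4 input and 98.5 and 102 CPM in saline input, CPM being the count scaled to library size with TMM factors. Markers of other cells remained in TRAP, and the sum of the 5 GABAergic and glycinergic markers was 1012 to 1595 CPM over the 9 TRAP libraries and 610 to 765 CPM over the 4 inputs. DSP-4 TRAP replicates 2 and 3 stood apart, where 20 and 22 genes had no read, whereas every other library had at most 6 such genes.

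Phox2a was the factor gene with the greatest excess in TRAP over input. In DSP-4 TRAP it ranged over 3.69, 6.32 and 12 CPM (lowest, median, highest), and in saline TRAP it stood at 11, 14.2 and 12.1 CPM. In DSP-4 input it stood at 1.58 and 0.423 CPM, counts of 37 and 9, and in saline input at 1.37 and 2.08 CPM, counts of 36 and 44. Every TRAP library lay above every input library, and Phox2a had the lowest input counts of the 5 genes. Its input counts all lay below 78.4, the lowest mean count of any gene in the table. Phox2a thus has a row only through its TRAP counts. A gene with such input counts could not be in the table without an excess in TRAP, so the filter in part fixed this outcome. By edgeR's quasi-likelihood test with Benjamini-Hochberg adjustment, the log2 fold change of TRAP over input was 2.70 (SE 0.57, FDR = 0.00132) in DSP-4 mice and 2.85 (SE 0.58, FDR = 0.00261) in saline mice. Averaged over treatments it was 2.78 (95% interval 1.91 to 3.64), or 6.84-fold. The inputs limit this value, since without DSP-4 input replicate 2, which leaves the input with a count of 9, the change in DSP-4 mice was 3.92, and without DSP-4 input replicate 7 it was 2.05.

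**Figure D1:**
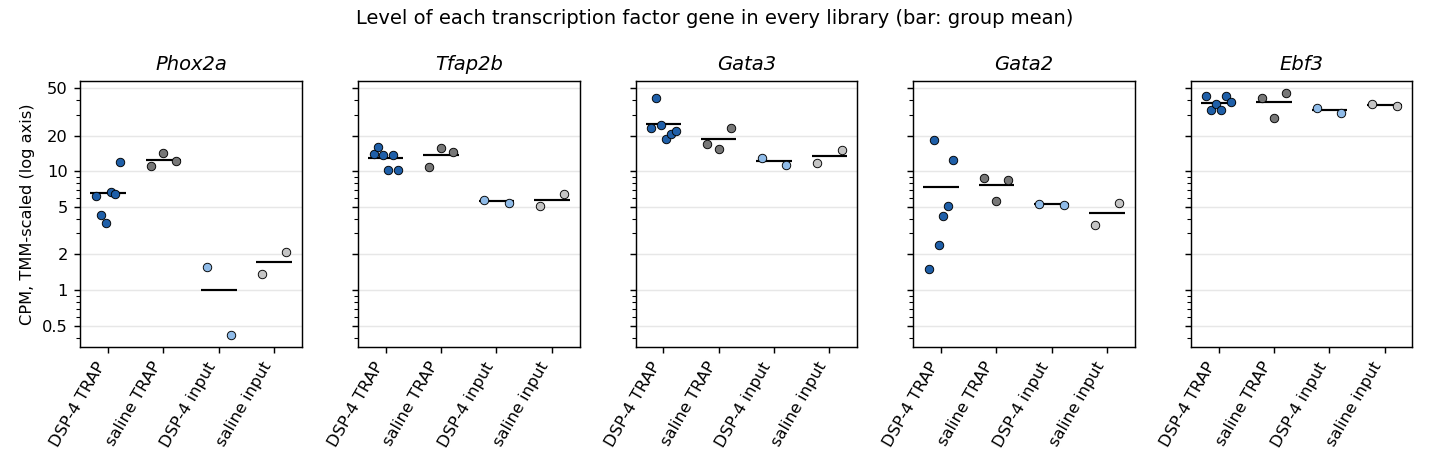
TMM-scaled CPM of the 5 measured factor genes (y, log axis) in each of the 13 libraries (points), by group (x), with the group mean as a bar. Phox2a, Tfap2b and Gata3 had every TRAP library above every input library, Gata2 spread from 1.52 to 18.5 CPM in DSP-4 TRAP, and Ebf3 stayed between 28.2 and 45.5 CPM throughout.

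Tfap2b was enriched less than Phox2a but more evenly. It ranged over 10.2, 13.7 and 16.0 CPM in DSP-4 TRAP and stood at 10.8, 15.6 and 14.5 CPM in saline TRAP. The inputs stood at 5.79 and 5.40 CPM in DSP-4 mice and 5.11 and 6.47 CPM in saline mice, all below the lowest TRAP library. The edgeR log2 fold change was 1.21 (SE 0.28, FDR = 0.00296) in DSP-4 mice and 1.24 (SE 0.31, FDR = 0.00803) in saline mice, and 1.22 averaged, or 2.34-fold. With 1 library left out in turn, the averaged change lay between 1.14 and 1.31.

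Gata3 was more abundant than either in CPM, and its excess in TRAP was smaller. It ranged over 18.6, 22.5 and 41.5 CPM in DSP-4 TRAP and stood at 16.9, 15.5 and 23.3 CPM in saline TRAP. In DSP-4 input it stood at 12.9 and 11.4 CPM and in saline input at 11.9 and 15.1 CPM. The TRAP and input libraries did not overlap, but the lowest saline TRAP library lay just above the highest input library. In edgeR the change was 1.04 (SE 0.30, FDR = 0.0110) in DSP-4 mice, 0.47 (SE 0.32, FDR = 0.302) in saline mice and 0.75 (FDR = 0.00892) averaged. The difference between the treatments, tested as an interaction, was 0.57 (95% interval −0.33 to 1.48, unadjusted p = 0.197, FDR = 1.0), so an excess particular to DSP-4 mice was not shown. Without DSP-4 input replicate 7 the change in DSP-4 mice was 0.95 and did not pass (FDR = 0.116).

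Gata2 and Ebf3 did not pass in any of these comparisons. Gata2 ranged over 1.52, 4.69 and 18.5 CPM in DSP-4 TRAP and stood at 8.80, 5.58 and 8.46 CPM in saline TRAP, against 5.32 and 5.22 CPM in DSP-4 input and 3.51 and 5.43 CPM in saline input. Its averaged change was 0.63 with an interval of −0.49 to 1.74 (edgeR FDR = 0.330), which holds both no change and more than a 3-fold excess. Ebf3 ranged over 32.6, 37.6 and 43.2 CPM in DSP-4 TRAP and stood at 41.1, 28.2 and 45.5 CPM in saline TRAP, against 34.3 and 30.7 CPM in DSP-4 input and 37.1 and 35.4 CPM in saline input. Its TRAP and input libraries overlapped, and its averaged change was 0.15 with a narrow interval of −0.16 to 0.46 (FDR = 0.408).

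In all, 3 of the 5 were higher in TRAP in DSP-4 mice, where 27.3% of all genes were, 2 of 5 in saline mice (19.5% of all genes), and 3 of 5 averaged over treatments (31.1% of all genes). All 9 TRAP libraries lay above all 4 inputs for 3 of 5, against 18.2% of all genes. Phox2a is among those counted in each case, and it has a row only through its TRAP counts. The median log2 fold change of the 5, averaged over treatments, was 0.75, and that of all genes −0.01. None of the 5 was lower in TRAP, and without DSP-4 TRAP replicates 2 and 3 the numbers higher were again 3, 2 and 3. Of the 5 GABAergic and glycinergic markers, 4 were higher in TRAP and 1 did not pass. Of the 3 serotonergic markers measured (of 6 listed), 2 were higher averaged over treatments and 1, with a negative value, did not pass, and 1 of 3 passed in each treatment alone. The serotonergic sum was 94.0 to 177 CPM in TRAP and 71.5 to 89.1 CPM in input. Averaged over treatments, 4 of 7 cerebellar granule and Purkinje markers were higher and 3 did not pass, with a median of 1.21. Of 5 astrocyte markers, 4 were higher and 1 lower (median 0.52). Of 5 oligodendrocyte markers, 1 was higher and 3 were lower (median −0.63). The part of any of these cells in the excess of Tfap2b or Gata3 was not tested.

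In all, 3 pools gave both a TRAP and an input library. Within these pools Phox2a was higher in TRAP by 2.73-fold and 15.9-fold in DSP-4 pools 2 and 7 and by 5.84-fold in saline pool 12, the 15.9-fold resting on the input count of 9. For Tfap2b the ratio was 2.76 in DSP-4 pool 2, 1.88 in DSP-4 pool 7 and 2.24 in saline pool 12, and for Gata3 it was 3.21, 1.64 and 1.55 in those pools. Thus all 3 were in excess within each pool, whereas Gata2 had a ratio of 3.47 in DSP-4 pool 2, 0.813 in DSP-4 pool 7 and 1.56 in saline pool 12. Ebf3 gave ratios of 0.952, 1.07 and 1.28 in the 3 pools. With the pool as a fixed block in edgeR, which leaves saline mice with 1 pair, neither Phox2a (2.56, FDR = 0.129) nor Tfap2b (1.18, FDR = 0.303) passed in saline mice. There were then 0 of 5 members called in saline mice, and 707 genes of the table in place of 4217.

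TRAP also shifted with GC content. Annotated genes were split into 10 equal bins by GC content. The bin richest in GC, which holds Phox2a (63.8% GC in exons, higher than 99.4% of genes) and Gata2 (58.2%), had a median averaged change of −0.58, while the bins of Tfap2b (0.16) and of Gata3 and Ebf3 (0.08) had medians near 0. The median of Phox2a's own bin was thus negative while its change was positive. With an offset for GC content in edgeR, the averaged change was 3.64 for Phox2a, 1.01 for Tfap2b, 0.76 for Gata3 and 1.14 for Gata2, and Gata2 then passed (FDR = 0.0801).

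**Figure D2:**
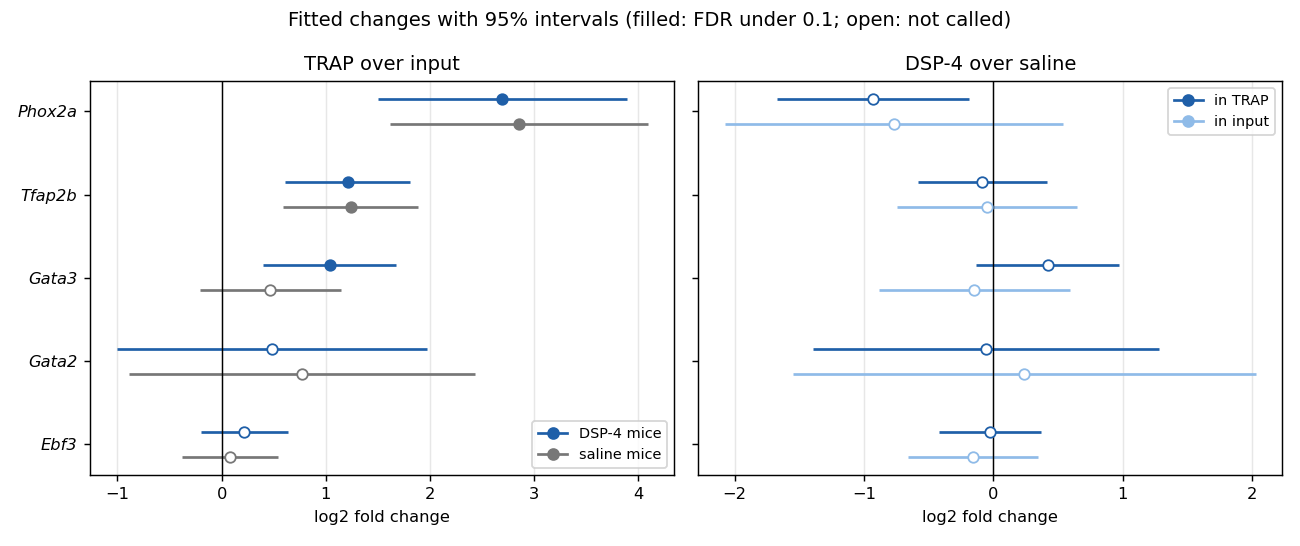
Fitted log2 fold changes (x) with 95% intervals for the 5 factor genes (y), TRAP over input in DSP-4 and saline mice on the left and DSP-4 over saline in TRAP and in input on the right. Phox2a and Tfap2b passed in both treatments on the left, and no gene passed on the right, where Phox2a in TRAP stood at −0.93.

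DSP-4 mice and saline mice were then compared in TRAP, the question being whether the factor genes changed as the noradrenergic effector genes did. None of the 5 passed (0.025% of all genes did, either direction), by edgeR at an FDR under 0.1, by DESeq2 or by limma. By edgeR, 1 of 5, Phox2a, had an unadjusted p under 0.05, as did 226 of the 12009 genes. For no member were the 6 DSP-4 libraries and the 3 saline libraries free of overlap, against 1.28% of all genes. In whole hindbrain bulk and in TRAP alike, fewer noradrenergic cells and less mRNA per cell cannot be told apart from these libraries. In TRAP, a lower yield of tagged ribosomes, whose tag the Slc6a2 promoter drives, cannot be told apart from them either. The paper counted locus coeruleus neurons in C57BL/6 mice and found no difference in number after DSP-4.

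Phox2a had the most negative estimate of the 5, without passing the test. In DSP-4 TRAP replicates 1, 2, 3, 7, 8 and 9 it stood at 6.25, 4.31, 3.69, 6.72, 6.39 and 12 CPM, a mean of 6.56 ± 2.94 (SD, n = 6), against 12.5 ± 1.63 in saline TRAP (SD, n = 3). Of the DSP-4 libraries, 5 lay below all saline libraries, and replicate 9 lay within them. The log2 fold change was −0.93 (SE 0.35, 95% interval −1.67 to −0.19, edgeR unadjusted p = 0.0174, FDR = 1.0). Over all alternatives it lay between −1.18 (without DSP-4 TRAP replicate 9) and −0.67 (without DSP-4 TRAP replicates 2 and 3), never past the FDR threshold. The unadjusted p did not stay under 0.05, being 0.0722 without saline TRAP replicate 6 and 0.0523 with the GC offset (edgeR). In input the change was −0.77 with an interval of −2.08 to 0.54, on counts of 9 to 44. That value turned on single libraries, being −1.99 (unadjusted p = 0.0227, edgeR FDR = 1.0) without DSP-4 input replicate 2, −0.13 without DSP-4 input replicate 7 and −0.44 without saline input replicate 12.

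The other 4 had estimates on both sides of 0. Tfap2b had a log2 fold change of −0.08 (95% interval −0.58 to 0.41), with 2 DSP-4 libraries below the saline range, 3 within it and 1 above. Ebf3 had −0.02 (−0.42 to 0.37), with all 6 DSP-4 libraries within the saline range. Gata3 had 0.42 (−0.13 to 0.97, unadjusted p = 0.125, edgeR FDR = 1.0), with 4 DSP-4 libraries within the saline range and 2 above it, and 0.18 without DSP-4 TRAP replicates 2 and 3. Gata2 had −0.05 (−1.39 to 1.28), an interval that allows a change of more than 2-fold either way.

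Among noradrenergic effector genes, of 15 measured, 3 fell (Gal, Slc6a2 and Dbh), 0 rose and 12 did not pass. The list had a median of −0.48 and 14 negative values, against a median of 0.00 over all genes. Of all 12009 genes, 3 fell, 0 rose and 6009 had negative values. The list was chosen with earlier results of these data known, so its lean to lower values is not free of that choice. Slc6a2, which encodes NET, averaged 44.9 ± 16.4 CPM in DSP-4 TRAP and 124 ± 5.16 CPM in saline TRAP. Dbh, the enzyme that makes norepinephrine from dopamine, averaged 57.0 ± 14.9 CPM in DSP-4 TRAP and 136 ± 8.67 CPM in saline TRAP. Gal, a neuropeptide gene, averaged 45.5 ± 6.44 CPM in DSP-4 TRAP and 103 ± 7.07 CPM in saline TRAP. The edgeR log2 fold changes were −1.48 for Slc6a2 and −1.26 for Dbh (FDR = 0.0928 each) and −1.18 for Gal (FDR = 0.0307). When a saline TRAP library was left out, or when DSP-4 TRAP replicate 1 or 7 was, the count of genes passing was 0. All 6 DSP-4 libraries lay below all 3 saline libraries for each of the 3 genes, and also for Th, which was not called (edgeR FDR = 0.574). The 3 genes were called on these same libraries, so their separation is no further support. Of all genes, 1.28% were free of overlap in either direction. Among the factor genes Phox2a came closest, with 5 of 6 DSP-4 libraries below. The samples removed for low Slc6a2 enrichment were all saline, so these gaps are not free of that choice. How far it widened them was not tested. Whether the change of Dbh differs from that of a factor gene was not tested.

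Between DSP-4 and saline mice, no difference in the enrichment over input passed the test for a member (0 of 5, and 0% of all genes, with 321 genes at an unadjusted p under 0.05 and 0 genes at FDR under 0.1 by edgeR, DESeq2 or limma). The interaction was −0.16 for Phox2a (95% interval −1.74 to 1.43) and −0.03 for Tfap2b (−0.87 to 0.82). In input, 0 of 5 passed for DSP-4 against saline, as did 0% of all genes by edgeR (306 at an unadjusted p under 0.05, 0 called by DESeq2 and 0 by limma). With the 4 inputs fitted alone 4 genes of the table passed and no member.

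**Figure D3:**
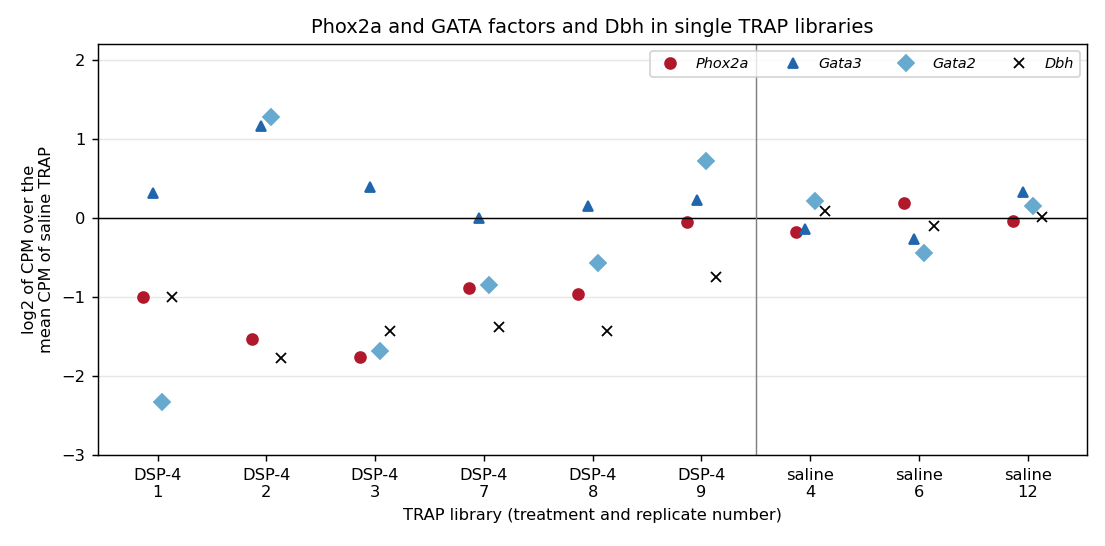
Log2 of each TRAP library's CPM over the mean CPM of saline TRAP (y) for Phox2a, Gata3, Gata2 and Dbh in the 6 DSP-4 and the 3 saline TRAP libraries (x). Dbh lay below 0 in all 6 DSP-4 libraries, and Phox2a near 0 in replicate 9 alone. Gata3 lay at or above 0 in all 6, and Gata2 above 0 in replicates 2 and 9 alone.

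Of the 5 factor genes, Gata2 differed most between the DSP-4 TRAP libraries. In replicates 1, 2, 3, 7, 8 and 9 it stood at 1.52, 18.5, 2.38, 4.24, 5.14 and 12.5 CPM, from counts of 43, 454, 58, 75, 107 and 255. Of these, 4 lay below all saline libraries and 2 above all of them. The SD of log2 CPM was 1.36, more than that of 99.1% of all genes and of 92.3% of the 1201 genes of like mean level. For comparison it was 0.589 for Phox2a, 0.408 for Gata3, 0.265 for Tfap2b and 0.177 for Ebf3, the last larger than that of 12.6% of genes of like level. Gata3, a close relative, was likewise highest in replicate 2, at 41.5 CPM, while in replicate 9, where Gata2 was second highest, it stood at 21.7 CPM, within the 18.6 to 24.3 CPM of the DSP-4 TRAP libraries other than replicate 2.

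Marker sums were set beside Gata2 in the same libraries. The 3 measured endothelial markers (of 8 listed) summed to 42.0, 46.6, 43.2, 29.7, 30.0 and 44.5 CPM in DSP-4 TRAP replicates 1, 2, 3, 7, 8 and 9, and to 22.9 to 52.8 CPM in saline TRAP. Replicate 2 was thus highest in both, while replicates 1 and 3, lowest in Gata2, had sums above those of replicates 7 and 8. The 4 measured pituitary markers (of 10 listed) summed to 98.8, 12.1, 260.8, 459, 492.7 and 115.7 CPM in those DSP-4 TRAP replicates, against 23.8 to 46.1 CPM in saline TRAP. Every DSP-4 TRAP library but replicate 2 thus lay above all saline TRAP libraries. The inputs stood at 44.2 and 474.5 CPM in DSP-4 mice and 363.1 and 33.3 CPM in saline mice. The 5 oligodendrocyte markers summed to 10930 CPM in replicate 2, against 4473 to 6378 CPM in the other DSP-4 TRAP libraries, and this was also the library with the highest Gata2 and Gata3. Their part in these values was not tested.

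Levels between genes were compared per kilobase of exon. In DSP-4 TRAP the order of the means was Gata3 (6.28 CPM per kb), Ebf3 (4.10), Phox2a (3.23), Tfap2b (2.04) and Gata2 (1.37), and the ranges of all neighbours overlapped. In saline TRAP the order was Phox2a (6.12 CPM per kb), Gata3 (4.67), Ebf3 (4.15), Tfap2b (2.15) and Gata2 (1.41), with the first 3 overlapping and Tfap2b and Gata2 each apart from the gene above. Phox2a thus led after saline and came after Gata3 and Ebf3 by mean after DSP-4. In DSP-4 input Ebf3 (3.52) and Gata3 (3.06) led and Phox2a was last (0.491). In saline input Ebf3 (3.93) and Gata3 (3.38) led again, and Tfap2b, Phox2a and Gata2 lay between 0.828 and 0.913 CPM per kb.

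The genes whose log2 CPM followed each factor most closely over the 9 TRAP libraries are given as a description, over libraries that differ in treatment and depth. They are the 3 with the highest Pearson r among all other genes of the table, so high values follow in part from that choice. For Phox2a these were Pank1 (Pearson r = 0.916), Gsk3b (0.913) and Zfp597 (0.901). For Tfap2b they were Taf4 (0.950), Ppp1r15a (0.933) and Gm35612 (0.933). For Gata3 they were Shb (0.967), Bcl2l1 (0.965) and Atp6ap1 (0.965), the last a subunit of the proton pump of acidic organelles. Gata2 was followed by Slc7a4 (0.976), Phlda1 (0.962) and Taf12 (0.922), and Ebf3 by Lrch3 (0.929), Uqcc1 (0.902) and Faap24 (0.889). Over the 15 genes, Spearman's rho ran from 0.733 to 0.967, and r without DSP-4 TRAP replicates 2 and 3 from 0.798 to 0.981 over 7 libraries. Both were computed on libraries that had served to pick the genes, so they are no separate support. None of the 15 is another factor of the list, and among the factors themselves r ranged from −0.641 (Phox2a with Gata3) to 0.425 (Tfap2b with Gata3).

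Around the listed factors, other transcription factors and cofactors were measured, and these lists were described by counts of calls in the averaged TRAP over input comparison, edgeR with FDR under 0.1. Paralogues were thinly covered, with 3 of 13 having a row. Ebf1 (0.47), a close relative of Ebf3, was higher, Ebf4 (−0.75) was lower, and Tfap2d (0.00) did not pass. Of other regulators of noradrenergic development, 7 of 13 had a row, of which 5 were higher, 1 was lower and 1 did not pass, with a median of 0.43. Of all genes, 31.1% were higher and 29% lower. The BMP receptor genes Bmpr1a (0.55) and Bmpr1b (0.87) and the BMP effector Smad5 (0.56) were among the higher ones. Rnf220, a ubiquitin ligase that acts on noradrenergic development in mouse, was the lower one (−0.72).

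Cofactors went both ways, with 8 of 20 higher, 6 lower and 6 not passing, at a median of 0.08, beside 31.1% of all genes higher and 29% lower. Zfpm2, a partner that binds GATA proteins, was higher (1.39), as were Hdac2 (1.31), a histone deacetylase, Tcf4 (1.90), an E protein, and Ep300 (1.41), a histone acetyltransferase. Zfpm1, the other GATA partner of that family, named here after its values were seen, was lower (−1.51, FDR = 0.00167). Of transcription factors of other hindbrain neurons, 24 of 47 had a row, of which 4 were higher, 13 lower and 7 did not pass, with a median of −0.56, again beside 31.1% of all genes higher and 29% lower. Hoxb5 (−1.04), Hoxb2 (−1.03) and Hoxb3 (−1.65) were among the lower, and Sall3 (1.25) among the higher. Of the effectors, 14 of 15 were higher, 0 were lower and the median was 1.08, with Slc18a2 (2.62), Slc10a4 (1.49), Ddc (1.08) and Calcr (2.87).

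**Figure D4:**
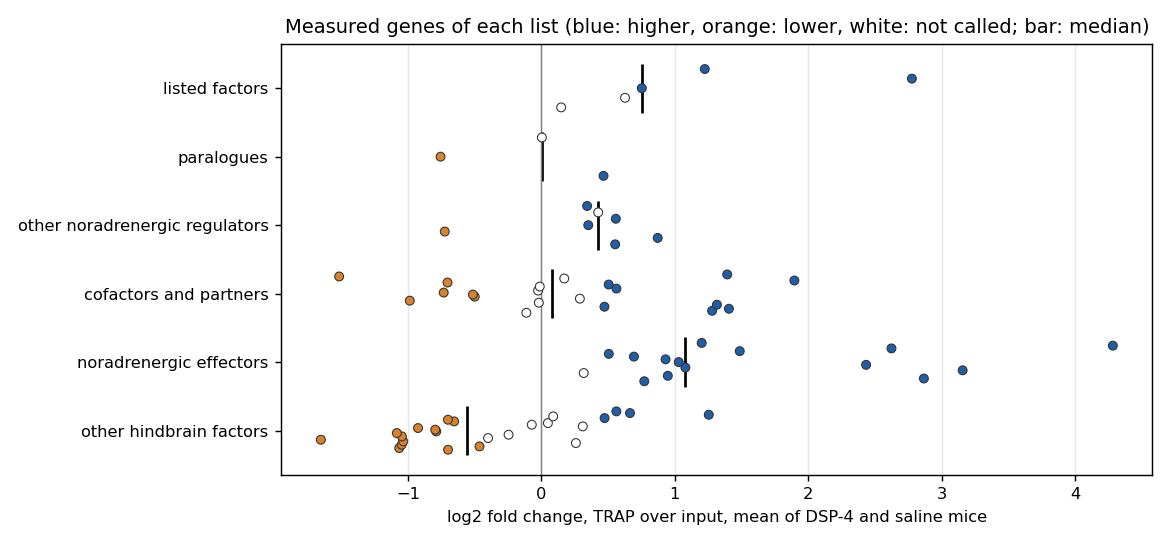
Log2 fold change of TRAP over input averaged over treatments (x) for the measured genes of each list (y), the bar being the median. Effectors lay furthest to the right (median 1.08), the listed factors next (0.75), and factors of other hindbrain neurons to the left (−0.56).

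In DSP-4 against saline in TRAP, none of these lists other than the effectors held a call. The 3 paralogues had a median of 0.27, the 7 other regulators 0.04, the 20 cofactors −0.03 and the 24 hindbrain factors 0.05. The values nearest to a call among the hindbrain factors were those of Hoxc5 (0.82), En2 (0.42), Sall3 (−0.31) and Hoxa5 (0.22), each with an edgeR FDR of 1.0.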

How the data were processed

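The depositors name the table filtered and normalized counts. Its values are whole numbers per gene in 13 libraries and were treated here as counts. The authors used STAR for alignment to mm10 and featureCounts for counting (versions not given in the sources used here), and had left out genes of low mean count. All columns were used (0 unused), and libraries were grouped by treatment and fraction from the sample labels. Each library is a pool of mice, so p-values measure the spread between pools.

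Counts were scaled by TMM and tested two-sided with edgeR 4.0.16 (glmQLFit, glmQLFTest; limma 3.58.1, DESeq2 1.42.0, R 4.3.3), with Benjamini-Hochberg adjustment over 12009 genes and FDR under 0.1. DSP-4 against saline in TRAP used the 9 TRAP libraries; all other comparisons used 13 libraries in 4 groups. Log2 CPM used a prior count of 1. The common biological coefficient of variation was 0.271 over TRAP and 0.250 over all libraries. Summaries and figures used Python 3.11.15, numpy 2.4.6, pandas 2.3.3 and matplotlib 3.10.9. The tests were tested on simulated data first.

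Per the methods, 1 homogenate yields both the TRAP and the input RNA of a pool, so replicate numbers pair them. Their deviations from group means correlated at 0.181 and 0.266 (DSP-4 pools 2 and 7) and 0.295 (saline pool 12). A fit with the pool as a block was an alternative, beside other scalings, tools, a low-count filter, a GC offset and leaving out each library. Gene coordinates and GC content were taken from GENCODE vM21 (GRCm38), which matched 11560 genes by name, and promoters are those of RefSeq on GRCm38.p6.

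The members and gene lists were chosen with earlier results of these data known. Some genes of the lists are not reported here and were left out of the list counts. Named genes are every measured member, up to 4 genes with the smallest p of each list in each comparison described, those passing in DSP-4 against saline in TRAP, and 3 genes most like each member. For effectors in TRAP over input, the 4 were taken with Dbh, Slc6a2, Th and Gal set aside.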

Additional observations from a re-analysis of the deposited data

Results flagged for a closer look

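The 6 DSP-4 TRAP libraries of each of the 5 measured factor genes were examined for a library far from the others, by the ratio of its gap to the group's range against Dixon's critical value of 0.625, which chance passes in about 1 in 20 groups. Phox2a stood at 12 CPM in DSP-4 TRAP replicate 9, a ratio of 0.636. Gata3 stood at 41.5 CPM in DSP-4 TRAP replicate 2, a ratio of 0.751. Replicate 2 had 20 genes at a count of 0.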

How the results depend on the processing

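Input groups of 2 libraries, low Phox2a input counts and the pooling of mice limit these values. Across alternatives, Phox2a kept its lower value in DSP-4 TRAP (−1.18 to −0.67) and Phox2a, Tfap2b and Gata3 kept their averaged excess in TRAP with a call. Gata3 in DSP-4 mice was not called without DSP-4 input replicate 7 (0.95). With the pool as a fixed block, the number of members called in saline mice was 0 in place of 2; the same fit called 3736 of all genes in DSP-4 mice, 707 in saline mice and 4798 averaged, where the fit without a block called 6135, 4217 and 7219. It changed no other member's call, and with the pool as a random block the counts of members called were 3, 2 and 3. Without DSP-4 input replicate 7, 3678 genes were called in DSP-4 mice, and without saline input replicate 5 or 12, 2431 or 2100 in saline mice. For DSP-4 against saline in TRAP, where 3 genes were called, library size only and the GC offset gave 1 each, DESeq2 gave 5, and leaving out 1 library gave 0 to 3. For the inputs alone 4 genes were called, in place of 0.

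Values that had not passed changed sign, and the cause was not tested. For DSP-4 against saline in TRAP, Ebf3 turned to 0.0094 with library size only, 0.0044 with the GC offset and 0.038 without DSP-4 TRAP replicates 2 and 3. Gata2 in DSP-4 mice, TRAP over input, turned to −0.034 with limma. Tfap2b in input turned to 0.065 with the GC offset. The interaction for Phox2a turned to 0.21 with the GC offset, 0.096 without DSP-4 TRAP replicates 2 and 3 and 0.032 with the block, and with the block Tfap2b, Gata2 and Ebf3 turned to 0.023, 0.13 and −0.35. With 1 library left out, DSP-4 against saline in TRAP ran from −0.565 to 0.161 for Gata2, −0.197 to 0.127 for Ebf3 and −0.225 to 0.0328 for Tfap2b. TRAP over input ran from −0.0368 to 0.699 for Gata2 in DSP-4 mice and −0.064 to 0.257 for Ebf3 in saline mice. DSP-4 against saline in input ran from −0.206 to 0.133 for Tfap2b, −0.0406 to 0.588 for Gata2 and −0.306 to 0.0376 for Gata3. The interaction ran from −0.793 to 1.08 for Phox2a, −0.208 to 0.140 for Tfap2b, −0.807 to 0.00442 for Gata2 and −0.0394 to 0.282 for Ebf3, the 1.08 being the fit without DSP-4 input replicate 2. The correlation of Phox2a with Zfp597 was 0.798, and that of Gata3 with Bcl2l1 0.844, once DSP-4 TRAP replicates 2 and 3 were left out. With a prior count of 5, the mean log2 CPM of Gata2 in DSP-4 input was 2.46.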
